A study of Mus musculus with 4 samples.

Results

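The genes examined here were Mbp, Mog, Mag, Mobp, Aspa, Cldn11, Mal, Ugt8a and Ermn, a set of 9 genes that mark oligodendrocytes and the myelin sheath, in RNA that was taken from motor neuron cell bodies. They were chosen by name, though with earlier results of these data known. Of the 9 genes, 8 were found in the tables by symbol, and Ermn was found under A330104H05Rik, an older symbol that RefSeq lists for it, each as a single entry among 27189. RNA-Seq was done on 4 libraries of polyA RNA, each from 1 mouse of 3 months of age. The 2 wild-type mice were of strain 592, which carries a transgene for wild-type human SOD1 fused to YFP, and the 2 G85R mice were of strain 737, which carries the same fusion with the G85R mutation. In both strains the transgene is a genomic fragment of the human SOD1 gene, kept on a mixed C57BL/6J x SJL/J background, and the G85R strain was the one with the higher copy number. Genotype, copy number and strain therefore cannot be told apart, and each strain is a single transgenic line. Cell bodies stained with Azure B were cut by laser from the ventral horn, 3000 to 4000 per animal, and G85R cells with large aggregates were left out by the authors.

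Oligodendrocytes are the glial cells that wrap axons of the central nervous system in myelin, a compacted stack of membrane rich in cholesterol and galactolipids. Motor neurons do not make myelin, but oligodendrocyte processes and satellite oligodendrocytes lie close against their cell bodies, and some myelin RNAs, that of Mbp above all, are carried out of the oligodendrocyte cell body into its processes. The comparison of the genotypes asks whether RNA levels differ between mutant and wild-type animals before symptoms. In bulk RNA, a larger share of captured oligodendrocyte material, more RNA per oligodendrocyte and RNA of the neurons themselves cannot be told apart.

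Values are RPKM, reads per kilobase of transcript scaled to the mapped reads of the library, so that levels of different genes can be compared per length. Reads behind a value were estimated by dividing it by the RPKM of 1 read, and these estimates summed to 21560318 to 25186594 per library. Only 53.2% to 53.9% of the low estimates came out within 0.01 of a whole number, and counting intervals were therefore not computed. The labelled cell type was checked by its markers. The neurofilament gene Nefh showed an RPKM of 1002 to 1106 and Slc18a3, the vesicular acetylcholine transporter, of 309 to 477. Other motor neuron markers lay as low as Isl1 (4.41 to 6.37). Of the astrocyte markers, Aldoc (443 to 671) and S100b (412 to 498) were at the level of Slc18a3. The other astrocyte markers were lower, from Slc1a3 (0.990 to 2.81) to Gfap (11.5 to 91.9). Of the peripheral myelin and Schwann cell genes, Pmp22 stood at 125 to 183, the other genes found lay at or below 1.47, and Egr2 was listed at 0 in all 4 libraries.

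All 9 genes were detected in every library. Mean RPKM over the 4 libraries fell from 342 for Mbp through Mobp (99.3), Mag (55.9), Cldn11 (47.8), Mal (31.2), Mog (21.3), Ugt8a (15.6) and Ermn (7.18) to 3.33 for Aspa. Neighbors in this order did not overlap in their values over the 4 libraries, except Mag and Cldn11. Mbp ranked between position 108 and 163 among all entries of a library, and it made up 51.0% to 57.7% of the summed RPKM of the 9 genes. That sum was 592 and 589 for wild-type replicates 1 and 2 against 737 and 578 for G85R replicates 1 and 2, or 0.147% to 0.188% of all RPKM in a library.

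**Figure D1:**
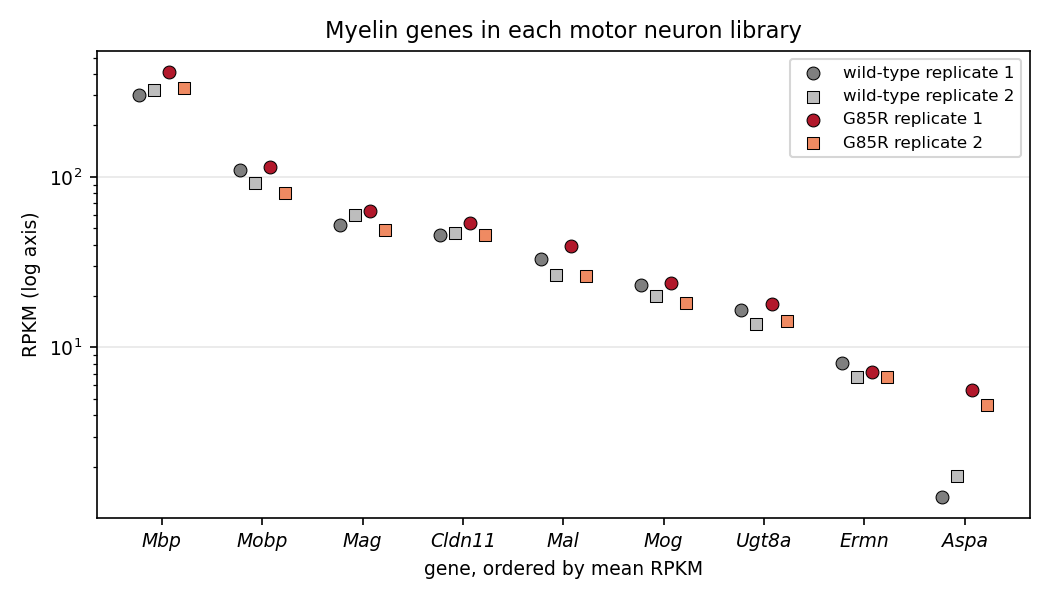
RPKM of the 9 genes (log axis) in each of the 4 libraries, ordered by mean RPKM, with 1 point per library. The points of Aspa fall into a lower wild-type pair (1.33 and 1.76) and a higher G85R pair (4.57 and 5.63), while for each of the other genes the points lie close together and, except for Mbp, the genotypes overlap.

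The genotypes were compared by limma, on the scale of log2(RPKM + 0.1), over the 11530 genes whose mean RPKM reached 1, all 9 genes among them, with Benjamini-Hochberg adjustment over all tested genes. Of the 9 genes, 1 was called higher in G85R at an adjusted p under 0.05, and that gene was Aspa. Of all tested genes, 31 (0.269%) were called higher. In the other direction 0 of the 9 genes were called, compared with 43 (0.373%) of all tested genes. At an unadjusted p under 0.05, 1 of the 9 genes, again Aspa, was higher and 0 were lower, compared with 4.66% and 6.37% of all tested genes, and counts this small are near those shares. For 2 of the 9 genes, Aspa and Mbp, the lower G85R value exceeded the higher wild-type value, and this held for 17.3% of all tested genes. Both lay below for 0 of the 9, compared with 23.9% of all tested genes. The median log2 fold change of the 9 genes was 0.09, and that of all tested genes was -0.02. For any gene taken alone, the smallest two-sided p that exact permutation of 2 and 2 libraries allows is 0.333, and the call of Aspa rests on a variance shared between genes. The log-linear likelihood ratio test called 0 of the 9 genes, compared with 62 genes in all. It took rounded RPKM as counts, which are small for low genes. It was run and adjusted over all 27189 entries, not only over the genes whose mean RPKM reached 1.

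Aspa encodes aspartoacylase, an enzyme of oligodendrocytes that splits N-acetylaspartate made by neurons into aspartate and acetate, which feeds lipid synthesis. Which cells the Aspa RNA came from was not tested. The gene spans 73118494 to 73140309 of chromosome 11, minus strand (NCBIM37, the assembly that UCSC names mm9, used for all positions of genes here), with no overlapping gene in the annotation. Its RPKM was 1.33 and 1.76 for wild-type replicates 1 and 2, from an estimated 89 and 125 reads, against 5.63 and 4.57 for G85R replicates 1 and 2, from 344 and 296 reads. Both G85R libraries stood well above both wild-type libraries, by more than the spread within either pair. The means were 1.55 ± 0.303 and 5.10 ± 0.748 (SD, n = 2 libraries each), a 3.29-fold increase. The log2 fold change was 1.66, with a standard error of 0.20 and a 95% interval from 1.18 to 2.14 (adjusted p = 0.0242 from limma). Leaving out 1 library at a time gave log2 fold changes of 1.47 to 1.85, each from a fit with 1 library left in a genotype. The call was lost when no minimum RPKM was required (adjusted p = 0.415 from limma) and in the log-linear likelihood ratio test of RPKM (raw p = 0.0275 from the chi-square distribution, adjusted p = 1). That test took rounded RPKM as counts, so Aspa entered with numbers far below its estimated reads. The outcome of the log-linear test for Aspa therefore carries little weight either way. The level of Aspa relative to Ugt8a was 8.10% and 12.9% for wild-type against 31.4% and 32.2% for G85R. This ratio largely restates the values of Aspa, since Ugt8a varied only 1.31-fold between its highest and lowest library.

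Some of the genes near Aspa on chromosome 11, listed by hand, were read out in the same libraries. Trpv3, whose end lies 4628 bases away, showed an RPKM of at most 0.101, and Spata22, which begins 2933 bases away on the other side, of at most 0.0882. Of the genes read out on the side of Trpv3, the nearest that were tested were Carkl and Ctns. Carkl is the kinase gene that the annotation names Shpk, and Ctns encodes the lysosomal cystine transporter. Their log2 fold changes were 0.11 and -0.13 (adjusted p = 0.926 and 0.896 from limma). Farther along, P2rx5, an ATP-gated ion channel gene, did not pass the test, with RPKM values of 20.8 and 20.9 for wild-type against 15.0 and 16.8 for G85R (log2 fold change -0.39, adjusted p = 0.266 from limma). Camkk1, farther still, had 83.1 and 93.8 for wild-type against 68.5 and 74.4 for G85R (log2 fold change -0.31, adjusted p = 0.378 from limma). The unadjusted p from limma was 0.0110 for P2rx5 and 0.0270 for Camkk1. Both G85R values lay below both wild-type values for these genes, as for 23.9% of all tested genes. These flanking genes were picked by hand and not by a fixed rule, so other genes of the region may be missing. No tested gene was read out on the side of Spata22.

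N-acetylaspartate, the substrate of Aspa, is made in neurons by the product of Nat8l. Nat8l showed an RPKM of 242 and 280 for wild-type against 235 and 267 for G85R, and its genotypes overlapped (log2 fold change -0.06, 95% interval -0.33 to 0.22). Nat8l thus stood far above Aspa in every library.

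**Figure D2:**
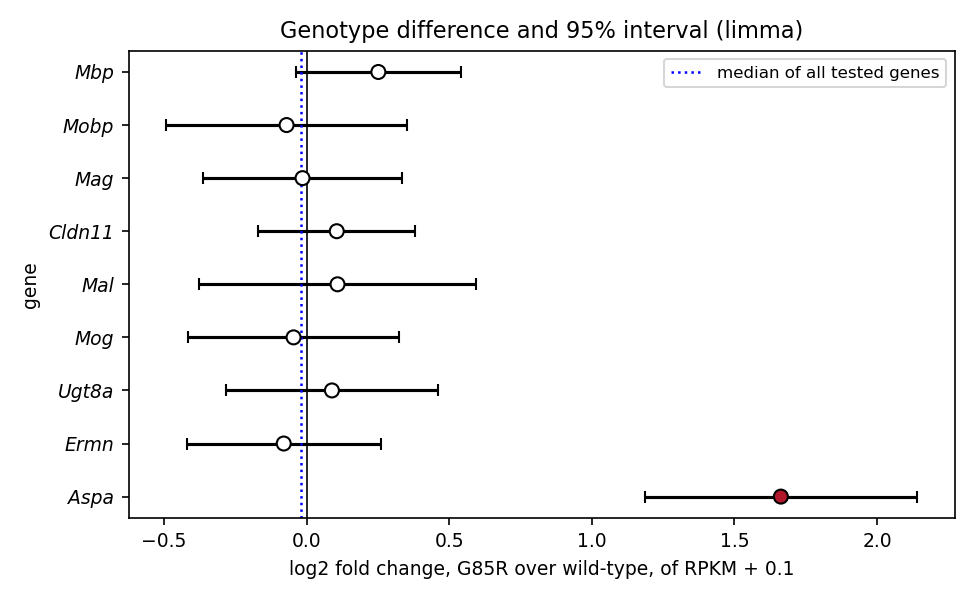
Log2 fold change of RPKM + 0.1, G85R over wild-type, for each of the 9 genes, with its 95% interval from limma (n = 2 libraries per genotype). The filled point is the gene with an adjusted p under 0.05, open points did not pass, and the dotted line is the median of all tested genes (-0.02). The interval of Aspa (1.18 to 2.14) lies apart from those of the other 8 genes, each of which includes 0.

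Mbp encodes myelin basic protein, which binds the cytoplasmic faces of the membrane to each other in compact myelin. The gene lies on chromosome 18 from 82644538 to 82755029, plus strand. Its RPKM was 302 and 322 for wild-type replicates 1 and 2 against 412 and 334 for G85R replicates 1 and 2. G85R replicate 1 was the highest, while G85R replicate 2 was only slightly above the higher wild-type library. The log2 fold change was 0.25 (95% interval -0.04 to 0.54, adjusted p = 0.522 from limma), and it was 0.10 without G85R replicate 1. Mobp, another small basic protein of compact myelin, lies on chromosome 9 from 120058860 to 120090602. It had 110 and 92.2 for wild-type against 114 and 80.5 for G85R, so that the G85R libraries enclosed both wild-type libraries. The log2 fold change of Mobp was -0.07 (95% interval -0.49 to 0.35).

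Mal and Cldn11 are proteins that span the membrane several times. Mal sorts proteins and lipids into myelin membrane and lies on chromosome 2 from 127458962 to 127482431, and Cldn11 forms the tight junctions between the turns of the sheath and lies on chromosome 3 from 31048868 to 31063246. The RPKM of Mal was 33.1 and 26.5 for wild-type replicates 1 and 2 against 39.1 and 26.0 for G85R replicates 1 and 2. Both libraries numbered 1 were higher than both numbered 2, as they also were for Mobp, Mog, Ugt8a and Ermn, and the genotypes overlapped. As a ratio, the spread between the G85R libraries was the widest of the 9 genes, and the log2 fold change was 0.11 (95% interval -0.38 to 0.60). Cldn11 was steadier, with 45.3 and 46.6 for wild-type against 53.7 and 45.6 for G85R. Only G85R replicate 1 stood above the others, and the log2 fold change of Cldn11 was 0.11 (95% interval -0.17 to 0.38).

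Mag and Mog are surface proteins of the immunoglobulin superfamily. Mag sits on the innermost membrane of the sheath and faces the axon, and Mog sits on the outermost. Mag lies on chromosome 7 from 31684202 to 31699851, and its RPKM was 52.4 and 59.7 for wild-type replicates 1 and 2 against 63.0 and 48.6 for G85R replicates 1 and 2. Mog, on chromosome 17 from 37147691 to 37160343, had 23.2 and 20.0 for wild-type against 23.8 and 18.3 for G85R. In both genes the G85R libraries were the highest and the lowest of the 4. The log2 fold changes were -0.01 for Mag (95% interval -0.36 to 0.33) and -0.05 for Mog (95% interval -0.42 to 0.32).

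Ugt8a encodes the transferase that makes galactosylceramide, the main galactolipid of myelin, and lies on chromosome 3 from 125568277 to 125641468. It showed an RPKM of 16.5 and 13.7 for wild-type against 18.0 and 14.2 for G85R, so that the genotypes overlapped (log2 fold change 0.09, 95% interval -0.28 to 0.46). Ermn encodes ermin, an actin-binding protein of the oligodendrocyte cytoskeleton, and lies on chromosome 2 from 57897524 to 57905275. It had 8.11 and 6.68 for wild-type against 7.22 and 6.70 for G85R, and it was the only one of the 9 genes with its highest value in a wild-type library (log2 fold change -0.08, 95% interval -0.42 to 0.26). Ermn overlaps Galnt5, on the other strand, at its end, and whether strand was used in counting is not given in the sources used here. The intervals of the 8 genes other than Aspa do not show that these genes were unchanged: that of Mbp reaches 0.54 and that of Mal reaches 0.60 on the log2 scale.

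**Figure D3:**
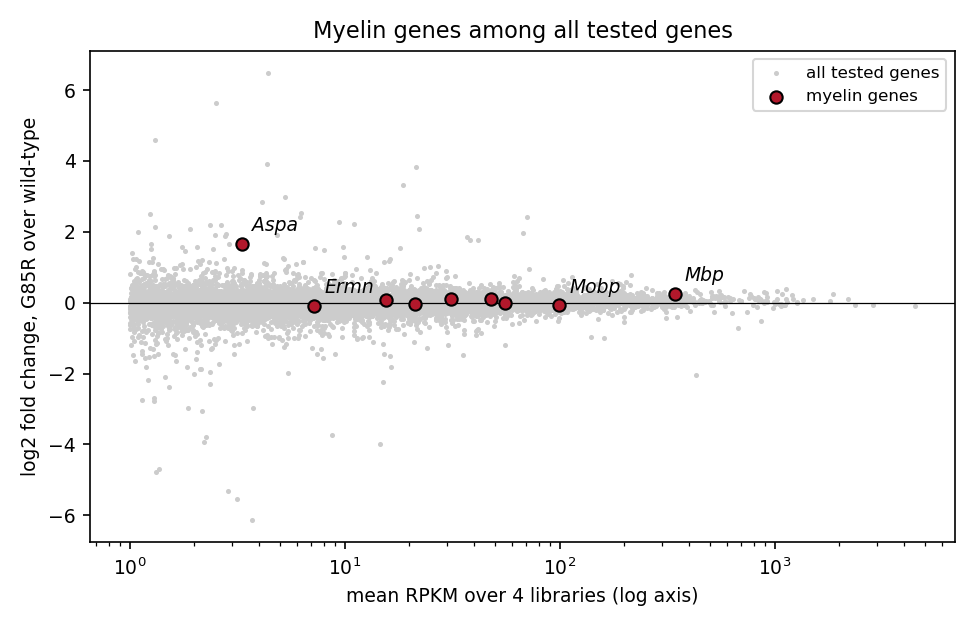
Log2 fold change, G85R over wild-type, against mean RPKM over the 4 libraries (log axis) for all 11530 tested genes in gray and the 9 genes in red, 4 of them named. Aspa (1.66) lies above the bulk of genes of similar level, and the other 8 genes lie between -0.08 and 0.25.

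Myrf and Sox10 are transcription factors that drive myelin genes, and both were measured here, so the letters of their motifs were looked for near the starts of the genes. RefSeq start windows (250 bases before to 50 after each start, GRCm38.p6) were searched on both strands for CTGGCAC, a form of the Myrf motif, and for ACAAAG, the core that Sox proteins bind. Mbp was left out of this search. Among the other 8 genes, all with a window, CTGGCAC was in a window of 1 gene, Mag, and ACAAAG in windows of 2 genes, Mag and Mobp. Of all 32851 windows, 5.01% held the first and 18.7% the second. The matches of Mag and the match of Mobp nearest to its start are shown on the strand of the gene, with the motif, or its reverse complement CTTTGT, in capitals. They lie at chr7:30914914-30914942 (minus strand), chr7:30914972-30915000 (minus strand) and chr9:120149611-120149639 (plus strand).
Mag, Myrf motif: gcaggcggcccCTGGCACccagggggcag
Mag, Sox motif: gacaagggcccCTTTGTgcccccctcccc
Mobp, Sox motif: tttgtgcgggcCTTTGTgtagcttttgtt
No window of Aspa held either motif. A match of letters is a description and does not show that a factor binds there.

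The G85R replicates differed in a way that most of the 9 genes shared. G85R replicate 1 was above G85R replicate 2 for all 9 genes, least for Ermn (1.08-fold) and most for Mal, compared with 54.2% of all tested genes. It was the highest of the 4 libraries for 8 of the 9 genes, all but Ermn, compared with 27.3% of all tested genes. Wild-type replicate 1 was above wild-type replicate 2 for 5 of the 9 genes, compared with 49.4% of all tested genes, and the median log2 ratio of these replicates was 0.21 over the 9 genes. For those 5 genes, Mobp, Mal, Mog, Ugt8a and Ermn, both replicate 1 values were above both replicate 2 values, which held for 20.5% of all tested genes. The 9 genes share a library in each of these counts and are not independent of each other. Against the wild-type mean, G85R replicate 1 ranged from 0.976-fold for Ermn to 1.32-fold for Mbp among the 8 genes other than Aspa, and G85R replicate 2 from 0.796-fold for Mobp to 1.07-fold for Mbp. For Aspa, the values were 3.64-fold and 2.95-fold. The summed RPKM of the 9 genes was 1.11 times as high in G85R as in wild-type, but 0.980 times without G85R replicate 1 and 1.25 times without G85R replicate 2. The median log2 fold change likewise was -0.13 without the former and 0.22 without the latter.

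Markers of several other cells, though not of all, moved with the same library. All 10 astrocyte markers had their highest value in G85R replicate 1, and so did all 8 tested microglia markers and all 5 interneuron markers. Of the other genes of the lineage, 11 of 20 for other myelin proteins were highest there, 6 of 15 of mature oligodendrocytes, 4 of 10 of lipid and acetate metabolism, 2 of 7 transcription factors and 2 of 6 precursor genes. So were 1 of 2 endothelial and mural markers and 0 of 2 peripheral myelin and Schwann cell genes. The share of all tested genes that were highest there was 27.3%, and several of these counts are near it. The summed RPKM of the astrocyte markers was 917 and 910 for wild-type against 1309 and 1005 for G85R replicates 1 and 2, and that of the 11 microglia markers was 17.9 and 19.7 for wild-type against 43.6 and 21.2 for G85R, with 0 genes of either list at 0 in all libraries. Most of the astrocyte sum came from Aldoc and S100b. Gfap, the intermediate filament of astrocytes, had 91.9 in G85R replicate 1 and 28.4 in G85R replicate 2, compared with 11.5 and 17.1 in wild-type. The 8 motor neuron markers were all lowest in G85R replicate 1, compared with 25.9% of all tested genes, and their summed RPKM was 2562 and 2832 for wild-type against 2275 and 2646 for G85R. The part of these markers in the values of the myelin genes was not tested. Without this library the log2 fold change of Aspa was 1.52, a value that rests on 1 G85R library.

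**Figure D4:**
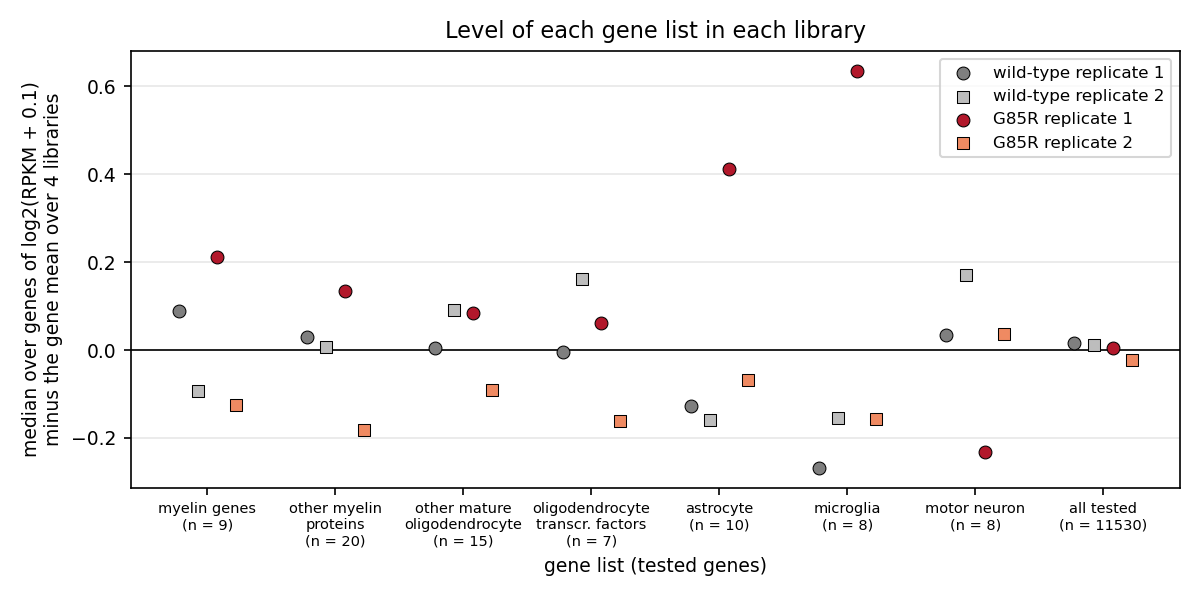
Median over the tested genes of each list of log2(RPKM + 0.1) minus the mean of the gene over the 4 libraries, with 1 point per library. G85R replicate 1 is the highest library for the 9 myelin genes (0.21), the other myelin proteins (0.13) and the astrocyte (0.41) and microglia (0.64) markers, and the lowest for the motor neuron markers (-0.23). Wild-type replicate 2 is the highest for the mature oligodendrocyte genes (0.091 against 0.084) and the transcription factors (0.16 against 0.06).

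Other genes of the lineage were described from lists named by function. Of 20 tested genes for other myelin proteins, limma called 0 in either direction, and their median log2 fold change was -0.09. Cnp, an enzyme of the uncompacted cytoplasm, had 65.6 and 63.5 for wild-type against 78.0 and 56.9 for G85R. Its highest and its lowest value were both in G85R libraries, and its log2 fold change was 0.05. In this list 1 gene had an unadjusted p under 0.05 with a higher level, Omg, and 2 had one with a lower level. Omg, a glycoprotein on the surface of oligodendrocytes that neurons express as well, had 80.7 and 80.0 for wild-type against 97.9 and 99.0 for G85R, without overlap (log2 fold change 0.29, adjusted p = 0.314 from limma).

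Of 10 tested genes of myelin lipid and acetate metabolism, limma called 0. Their median was 0.03, and 1 gene, Galc, had an unadjusted p under 0.05. Galc, the lysosomal enzyme that degrades the product of Ugt8a, had 11.2 and 8.75 for wild-type against 6.42 and 6.15 for G85R, without overlap (log2 fold change -0.65, adjusted p = 0.165 from limma). Of 15 tested other genes of mature oligodendrocytes, limma called 0, with a median of -0.06. At an unadjusted p under 0.05, 1 was higher, Cryab, and 2 were lower, Apod and Klk6. Cryab, a small heat shock protein that astrocytes express as well, was the highest of this list, with 123 and 144 for wild-type against 164 and 191 for G85R (log2 fold change 0.41, adjusted p = 0.288 from limma). The serine protease Klk6 had 8.82 and 10.8 in wild-type and 5.51 in both G85R libraries (log2 fold change -0.82, adjusted p = 0.0763 from limma). The log-linear test called 0 genes of these lists. Klk6, Apod, Galc, Omg, Sox8 and Gfap were picked out after their values were seen.

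Transcription factors of the lineage were present at lower levels. Of 7 tested, limma called 0, the median was -0.14, and 1, Sox8, was lower at an unadjusted p under 0.05. Olig1 was the highest, with an RPKM of 28.2 to 34.3. Sox10 had 12.3 and 15.7 for wild-type against 15.6 and 10.99 for G85R, Myrf had 8.05 and 9.94 and then 10.0 and 8.47, and Olig2 had 4.90 and 6.29 and then 5.13 and 3.67. The genotypes overlapped for all 3 of these factors. Genes of oligodendrocyte precursors were low, with Pdgfra at 0.909 to 1.08 and Cspg4 at 0.740 to 0.918, and Lhfpl3 was the highest of that list at 10.4 to 14.7. Of 6 tested precursor genes limma called 0, with a median of -0.11 and with 0 at an unadjusted p under 0.05.

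The remaining lists served as a check on other cells. Of the tested genes, 0 of 2 Schwann cell and peripheral myelin genes, 0 of 8 motor neuron, 0 of 10 astrocyte, 0 of 8 microglia, 0 of 2 endothelial and mural and 0 of 5 interneuron markers were called by limma. At an unadjusted p under 0.05, 2 motor neuron and 1 endothelial marker were lower, and 2 astrocyte and 3 microglia markers were higher, beside 6.37% of all tested genes that were lower and 4.66% that were higher at this p. The log-linear test called 1 motor neuron marker, Prph, and 2 astrocyte markers, Gfap and Aldoc. The median log2 fold changes of these lists, in the order given, were 0.02, -0.21, 0.27, 0.38, -0.12 and 0.14. The highest of these genes were Pmp22 (125 to 183), Nefh, Aldoc (443 to 671), C1qb (4.35 to 8.82), Cldn5 (4.24 to 6.81) and Slc32a1 (81.8 to 93.6). Of the red blood cell markers, the tested gene Hbb-b1 was called higher, with 1.75 and 2.00 for wild-type against 10.7 and 10.2 for G85R (log2 fold change 2.42, adjusted p = 0.00173 from limma). These values are of its entry with the higher mean. The other entry of Hbb-b1 was called higher as well, with 0.489 and 0.613 against 2.02 and 1.90 (adjusted p = 0.0466 from limma). Reads can be divided between near-identical hemoglobin genes. Alas2, too low to be tested, had 0.0707 and 0.0999 for wild-type against 0.678 and 0.570 for G85R.

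Genes whose pattern over the 4 libraries was most like the mean pattern of the 9 genes were found by the Euclidean distance between centered log2(RPKM + 0.1) profiles, among 7841 other genes whose mean RPKM reached 5. The nearest were H2afy, Clk2, 8430410A17Rik, Zfp385 and 1700021P22Rik, at distances of 0.0192 to 0.0425. This mean pattern includes the large difference of Aspa. Mbp itself was at 0.124, with 84 of the other genes nearer, and Aspa at 1.48, with 7794 nearer. None of the 5 nearest genes is on the lists of oligodendrocyte genes, and 4 libraries allow no more than this description.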

How the data were processed

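RNA-Seq values of 4 libraries were analyzed, 2 wild-type and 2 G85R, grouped by the titles of the samples. The authors mapped single-end reads with Bowtie 0.12.3 against the mm9 genome and known splice junctions (the labels name a paired-end library kit), and used Cufflinks to estimate gene levels. The RPKM values deposited by the authors have 1 line per UCSC cluster, and a second deposited column holds RPKM with 1 read added to every gene. Its difference from the first is the RPKM of 1 read (median 0.0195 to 0.0226), and 53.2% to 53.9% of the low estimates of reads were within 0.01 of a whole number. Cufflinks divides reads between isoforms, which can move the values of genes with many transcripts such as Mbp.

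The main test was that of limma 3.58.1, run in R 4.3.3 with lmFit and eBayes (variance trend over intensity), for log2(RPKM + 0.1) of genes whose mean RPKM reached 1. Fold changes on this scale understate those of low genes. A log-linear test was an alternative only, since the files hold RPKM. It took the RPKM with 1 read added to every gene, rounded to whole numbers, as counts. Replicates are separate animals. Other values were computed with Python 3.11.15, and limma was tested on simulated data. The genes, lists and tests were chosen with earlier results of these data known. Named were the 9 genes, from each list every called gene and the one with the highest mean RPKM, Cnp, Olig2, Sox10, Myrf, and the 5 nearest in pattern. Some genes that this rule names are not reported here. Gene positions are from a GENCODE annotation of NCBIM37. Alternatives were other pseudocounts (1 and 0.01), minimum RPKM (0.1, 5 or none), rescaling, quantile normalization, a replicate block, other eBayes settings, a log-linear likelihood ratio test, a looser threshold of 0.1, omission of each library in turn, and summing the entries of a symbol.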

Additional observations from a re-analysis of the deposited data

How the results depend on the processing

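The fold change of Aspa lay between 1.26 (pseudocount of 1) and 1.85 on the log2 scale over 16 alternatives, all of them increases, and Aspa was called in 14 of these. The number of the 9 genes called higher was 0 with no minimum RPKM, 0 in the log-linear likelihood ratio test (where the log2 fold change of Aspa was 1.71) and 0 with a minimum mean RPKM of 5, which removes Aspa, and then 1 gene had both G85R values above both wild-type values. No alternative called any of the 9 genes lower. With 1 library left out, the remaining library of that genotype was assumed to vary like the others. The number of genes with both G85R values above ran from 2 to 8, the median log2 fold change from -0.13 to 0.22 and the ratio of the summed RPKM from 0.980 to 1.25.

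The direction of the small differences depended on single libraries. With 1 library left out, log2 fold changes ran from -0.24 to 0.14 for Mog, -0.20 to 0.17 for Mag, -0.32 to 0.18 for Mobp, -0.012 to 0.22 for Cldn11, -0.18 to 0.40 for Mal, -0.080 to 0.26 for Ugt8a, -0.22 to 0.057 for Ermn, -0.18 to 0.27 for Cnp, -0.34 to 0.16 for Sox10, -0.11 to 0.19 for Myrf and -0.16 to 0.047 for Nat8l, and after median ratio rescaling that of Mag was 0.014.

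Over all tested genes, 74 were called, compared with 17 at a minimum mean RPKM of 5, 112 with no minimum, 39 after quantile normalization, 49 without the intensity trend, 142 at an adjusted p under 0.1 and 78 to 188 with 1 library left out. A replicate block called 527 genes. Replicate numbers are not stated to mark anything shared, and the correlation of the replicate 1 deviations between genotypes was 0.22. With that block Aspa was again the only one of the 9 genes called, and Galc, Cryab, Apod and Klk6 were among the genes called in addition. Klk6 was also called without wild-type replicate 1 (adjusted p = 0.0444 from limma). The Hbb-b1 entry with the higher mean was not called with no minimum or in the log-linear test. Restricting the set to the 8 genes matched by symbol, chosen after seeing the data, changed none of the counts of calls. The cause of these changes was not tested.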
